A study of Mus musculus with 16 samples.

Results

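Immediate early genes are the genes that a cell transcribes within minutes of a stimulus, from factors it already holds, so that no new protein is needed for their induction. Signals that reach serum response factor, CREB or the MAP kinases turn them on, and many of their RNAs are short-lived. In microglia and other cells that are enzymatically freed from tissue, the same genes are also known to be switched on by the handling itself. The members described here are 10 genes of this class. FOS, FOSB, JUN and JUNB are the proteins that pair to form the transcription factor AP-1, and ATF3 is a related leucine zipper factor induced by stress. EGR1 is a zinc finger transcription factor, NR4A1 is an orphan nuclear receptor, and IER2 is a small nuclear protein. DUSP1 is a phosphatase that switches off MAP kinases, and ZFP36 (tristetraprolin) binds AU-rich RNAs and speeds their decay, so both act as brakes.

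The members were all probes whose platform gene symbol is 1 of the 10 names. They numbered 10 genes of the 16593 named on the array, with 1 probe each among 25697 probes. The series holds 16 Illumina arrays of CD11b-bead-selected brain cells, labelled microglia, and asks about SIRT1, an NAD-dependent deacetylase, in these cells in youth, in ageing and in models of dementia. Young and old SIRT1F/F mice carried a floxed Sirt1 gene, with 3 arrays at each age. Young and old LysM-Cre/SIRT1F/F mice, called LysM-Cre here, carried the same floxed gene together with Cre recombinase inserted at Lyz2 (LysM), a lysozyme locus expressed by myeloid cells generally and not by microglia alone, again with 3 arrays at each age. The groups labelled TAU and TAU/LysM had 2 arrays each. No age is given for those groups, the labels do not describe the TAU model, and for TAU/LysM the floxed allele is not restated. Every group shared a mixed BL6 and 129/Sv background. The labels do not say that arrays of a group came from separate animals, so each p-value measures only the spread between the arrays, part or all of which may be technical. In bulk RNA of this kind, fewer cells of a type and less RNA per cell cannot be told apart.

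The microglial label fitted its markers. Of 14 listed microglial markers, 12 had a tested probe, and all 12, including P2ry12, Tmem119, Sall1 and Cx3cr1, were above background on all 16 arrays. The filter for testing asked for a signal above background on 2 or more of the 16 arrays, an array had 54.9% to 57.5% of its probes above background, and 16344 probes were tested. Markers of other cell types passed that filter too. They were 13 of 13 probed neutrophil genes, 8 of 8 of border-associated macrophages, 8 of 8 of choroid plexus and 8 of 10 of oligodendrocytes. Astrocytes had 7 of 9, endothelial cells 6 of 8, and erythrocytes and platelets 5 of 6. Monocytes had 4 of 6, B cells 4 of 6, T and NK cells 5 of 10 and neurons 5 of 10. However, Ccr2 of monocytes, Pax5 of B cells, Cd3e of T cells and Olig2 of oligodendrocytes were above background on 0 arrays. So were Snap25 and Syt1 of neurons. Arrays of 1 group correlated at 0.984 to 0.994 over the tested probes.

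Motifs of signal-responsive elements were sought in the sequences just upstream of the transcription starts, as exact matches only. Elements farther upstream, or with other letters, were not sought. RefSeq promoter windows of the GRCm38.p6 assembly, from 250 bases before to 50 bases after the start, were held for 8 of the 10 members and were searched on both strands for 4 motifs. The core site of the cyclic AMP response element (TGACG, or CGTCA on the other strand), to which CREB and ATF proteins bind, was in 6 of the 8 windows and in 20.8% of all 32851 windows. Motifs were allowed to overlap. The AP-1 site TGANTCA was in 0 of the 8 and in 7.81% of all. The CArG box bound by serum response factor was in 1 of the 8, Zfp36, and in 1.63% of all. The TATA box in the form TATAAA was in 2 of the 8, Fos and Junb, and in 13.6% of all. These matches describe letters in a window and no factor's binding was measured. The 150 bases before the start are printed for 5 members: Fos as the founding member of the class, and Fosb with Dusp1 and Junb with Zfp36 because those 2 pairs varied together across the arrays. Capitals mark the motifs, which are the TGACG core site on either strand, TATAAA and the CArG box, and each sequence reads 5′ to 3′ on the strand of its gene. The windows are chr12:85473740-85473889 (plus strand), chr7:19310046-19310195, chr17:26508473-26508622, chr8:84978749-84978898 and chr7:28379229-28379378 (all minus strand).
Fos: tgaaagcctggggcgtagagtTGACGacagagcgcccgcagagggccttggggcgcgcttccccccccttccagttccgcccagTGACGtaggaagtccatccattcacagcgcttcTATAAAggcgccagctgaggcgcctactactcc
Fosb: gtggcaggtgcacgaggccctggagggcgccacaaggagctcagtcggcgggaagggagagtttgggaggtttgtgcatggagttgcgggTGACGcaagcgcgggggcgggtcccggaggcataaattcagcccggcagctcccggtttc
Dusp1: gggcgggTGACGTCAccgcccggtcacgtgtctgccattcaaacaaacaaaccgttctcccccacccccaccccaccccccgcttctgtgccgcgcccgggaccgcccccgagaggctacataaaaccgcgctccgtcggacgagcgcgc
Junb: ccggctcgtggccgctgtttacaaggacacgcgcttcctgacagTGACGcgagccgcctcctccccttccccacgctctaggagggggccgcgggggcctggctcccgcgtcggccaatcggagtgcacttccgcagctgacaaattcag
Zfp36: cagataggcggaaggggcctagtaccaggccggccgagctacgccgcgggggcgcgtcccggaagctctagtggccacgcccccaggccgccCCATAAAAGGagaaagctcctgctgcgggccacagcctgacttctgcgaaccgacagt
Fos held the core site 129 and 66 bases before its start and the TATA box 33 bases before it. Fosb held 1 core site, 60 bases before its start. In Dusp1 core sites on both strands, 143 and 140 bases before the start, overlapped into a full palindromic element, and a further core site lay 191 bases before the start, outside the printed stretch. Zfp36 held no core site in the window but had its CArG box 58 bases before the start. Junb held 1 core site, 106 bases before its start, and its TATAAA match began at the start itself.

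The member probes were bright on every array, with the exception of Ier2 and Nr4a1. The raw intensity of Zfp36 lay between 39524 and 46686, which was 84.3% to 96.8% of the brightest probe on the same array. Egr1 read 30027 to 38393, Junb 24624 to 37815, Dusp1 23112 to 33729 and Fos 18976 to 33169, so these probes too lay near the top of the scale, where differences between samples may be compressed. Atf3 read 11212 to 18515, Jun 9106 to 17097 and Fosb 3065 to 9440. Ier2 was far dimmer at 344 to 999, between the 62.9th and the 79.0th percentile of its array's probes, and it was the member with the widest spread. Nr4a1 read 151 to 224 and was above background on 0 of 16 arrays, so it was not well above background in any group and was not tested. The other 9 members were above background on all 16. Brightness is set by each probe as well as by its RNA, so these intensities give no order of abundance between genes.

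**Figure D1:**
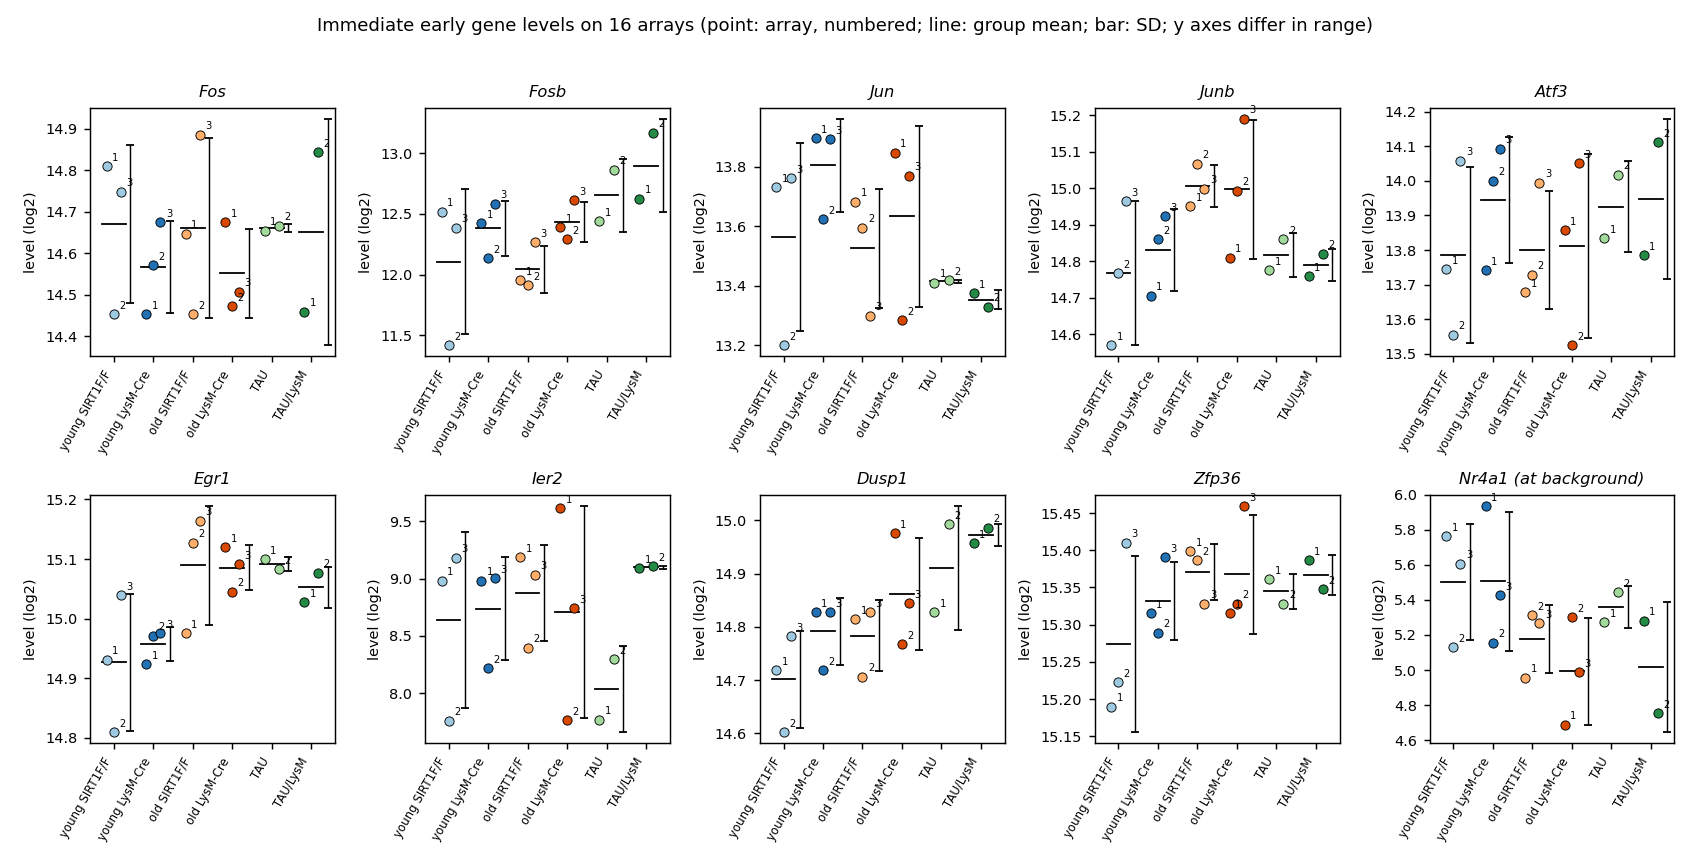
Normalized level (y axis, log2 intensity) of each member on each array, by group (x axis); points are arrays with their number, lines are group means and bars are the SD of the 3 or 2 arrays. The groups overlap for most members, Ier2 spans 7.76 to 9.62, and Nr4a1 stays under background throughout.

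Fos was level across the groups. Its normalized level was 14.81, 14.45 and 14.75 in young SIRT1F/F against 14.45, 14.57 and 14.67 in young LysM-Cre, then 14.65, 14.45 and 14.89 in old SIRT1F/F and 14.67, 14.47 and 14.51 in old LysM-Cre. It was 14.65 and 14.67 in TAU and 14.46 and 14.84 in TAU/LysM. Every group overlapped its neighbour in the order of group means, and the 2 arrays of TAU/LysM alone differed by nearly as much as the lowest and highest arrays of the series.

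Fosb had the widest range of the AP-1 genes. The young arrays read 12.52, 11.42 and 12.39 without Cre and 12.42, 12.14 and 12.58 with it. In old SIRT1F/F it read 11.96, 11.91 and 12.27, and in old LysM-Cre 12.39, 12.29 and 12.61. TAU arrays read 12.44 and 12.87 and TAU/LysM arrays 12.63 and 13.17. All 3 old LysM-Cre arrays lay above all 3 old SIRT1F/F arrays, whereas the young genotypes overlapped. The order of group means ran from TAU/LysM (12.90) through TAU (12.65), old LysM-Cre (12.43), young LysM-Cre (12.38) and young SIRT1F/F (12.11) to old SIRT1F/F (12.05), and each group overlapped the next.

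Jun had its lowest group mean in TAU/LysM, where Fosb had its highest. Its level in the young groups was 13.73, 13.20 and 13.76 without Cre and 13.90, 13.62 and 13.89 with it. The old groups read 13.68, 13.60 and 13.30 without Cre and 13.85, 13.28 and 13.77 with it. TAU read 13.41 and 13.42, and TAU/LysM read 13.38 and 13.33. Both TAU/LysM arrays lay below all 3 young LysM-Cre arrays, and the 4 groups of 3 arrays each spread more widely than TAU or TAU/LysM.

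Junb, which often opposes JUN within AP-1, read 14.57, 14.77 and 14.96 in young SIRT1F/F against 14.71, 14.86 and 14.92 in young LysM-Cre, then 14.95, 15.07 and 15.00 in old SIRT1F/F and 14.81, 14.99 and 15.19 in old LysM-Cre. TAU arrays read 14.78 and 14.86 and TAU/LysM arrays 14.76 and 14.82. The old groups had the highest means, 15.01 and 15.00, and both overlapped the young groups of their genotype. Atf3 ranged from 13.53 to 14.11, its group means lay between 13.79 and 13.95, and all neighbouring groups overlapped.

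Egr1 moved within a narrow band. The young groups read 14.93, 14.81 and 15.04 without Cre and 14.92, 14.97 and 14.98 with it. In old SIRT1F/F it read 14.98, 15.13 and 15.16, and in old LysM-Cre 15.12, 15.05 and 15.09. TAU read 15.10 and 15.08 and TAU/LysM 15.03 and 15.08. The 4 old and TAU groups had means of 15.05 to 15.09 and the 2 young groups 14.93 and 14.96. Zfp36, the member closest to the ceiling of the scale, ranged from 15.19 to 15.46, with group means of 15.27 to 15.37.

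Dusp1 had group means of 14.70 in young SIRT1F/F, 14.79 in young LysM-Cre, 14.78 in old SIRT1F/F, 14.86 in old LysM-Cre, 14.91 in TAU and 14.97 in TAU/LysM. Its lowest array was young SIRT1F/F 2 at 14.60 and its highest, at 14.99, were the second arrays of TAU and TAU/LysM. Ier2 read 8.98, 7.76 and 9.18 in young SIRT1F/F against 8.98, 8.22 and 9.01 in young LysM-Cre, then 9.19, 8.40 and 9.03 in old SIRT1F/F and 9.62, 7.76 and 8.74 in old LysM-Cre. In TAU it read 7.77 and 8.30, and in TAU/LysM 9.09 and 9.11. The TAU arrays were thus among the 5 lowest and the TAU/LysM arrays among the higher ones, but young SIRT1F/F and old LysM-Cre each spanned both pairs.

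The replicate error set how finely these values can be read. The residual SD around the group means was 0.071 for Zfp36, 0.072 for Egr1, 0.084 for Dusp1, 0.137 for Junb, 0.170 for Fos, 0.215 for Atf3, 0.227 for Jun, 0.344 for Fosb and 0.616 for Ier2, on the log2 scale with 10 residual degrees of freedom. Across all tested probes the median was 0.184. The brightest 5 members lay under that median, and the part of their closeness to the top of the scale in that was not tested.

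The design asks whether Cre, age or the TAU model altered these genes. None of the 9 tested members was called at an adjusted p under 0.05 in any of the 13 comparisons (limma, Benjamini-Hochberg over all tested probes). Over the 117 tests of a member, 109 estimates were smaller than 0.5 on the log2 scale, 2 had an unadjusted p under 0.05, and the lowest adjusted p was 0.173. A p that misses the threshold does not show that levels were equal, and the intervals below give the differences that remain possible. With 2 or 3 arrays a group, leaving out 1 array moved the estimate by over 1.5 times or turned its sign in 108 of the 117 tests, and turned the sign in 60. Comparisons that share a group, such as both comparisons with TAU, share those arrays.

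**Figure D2:**
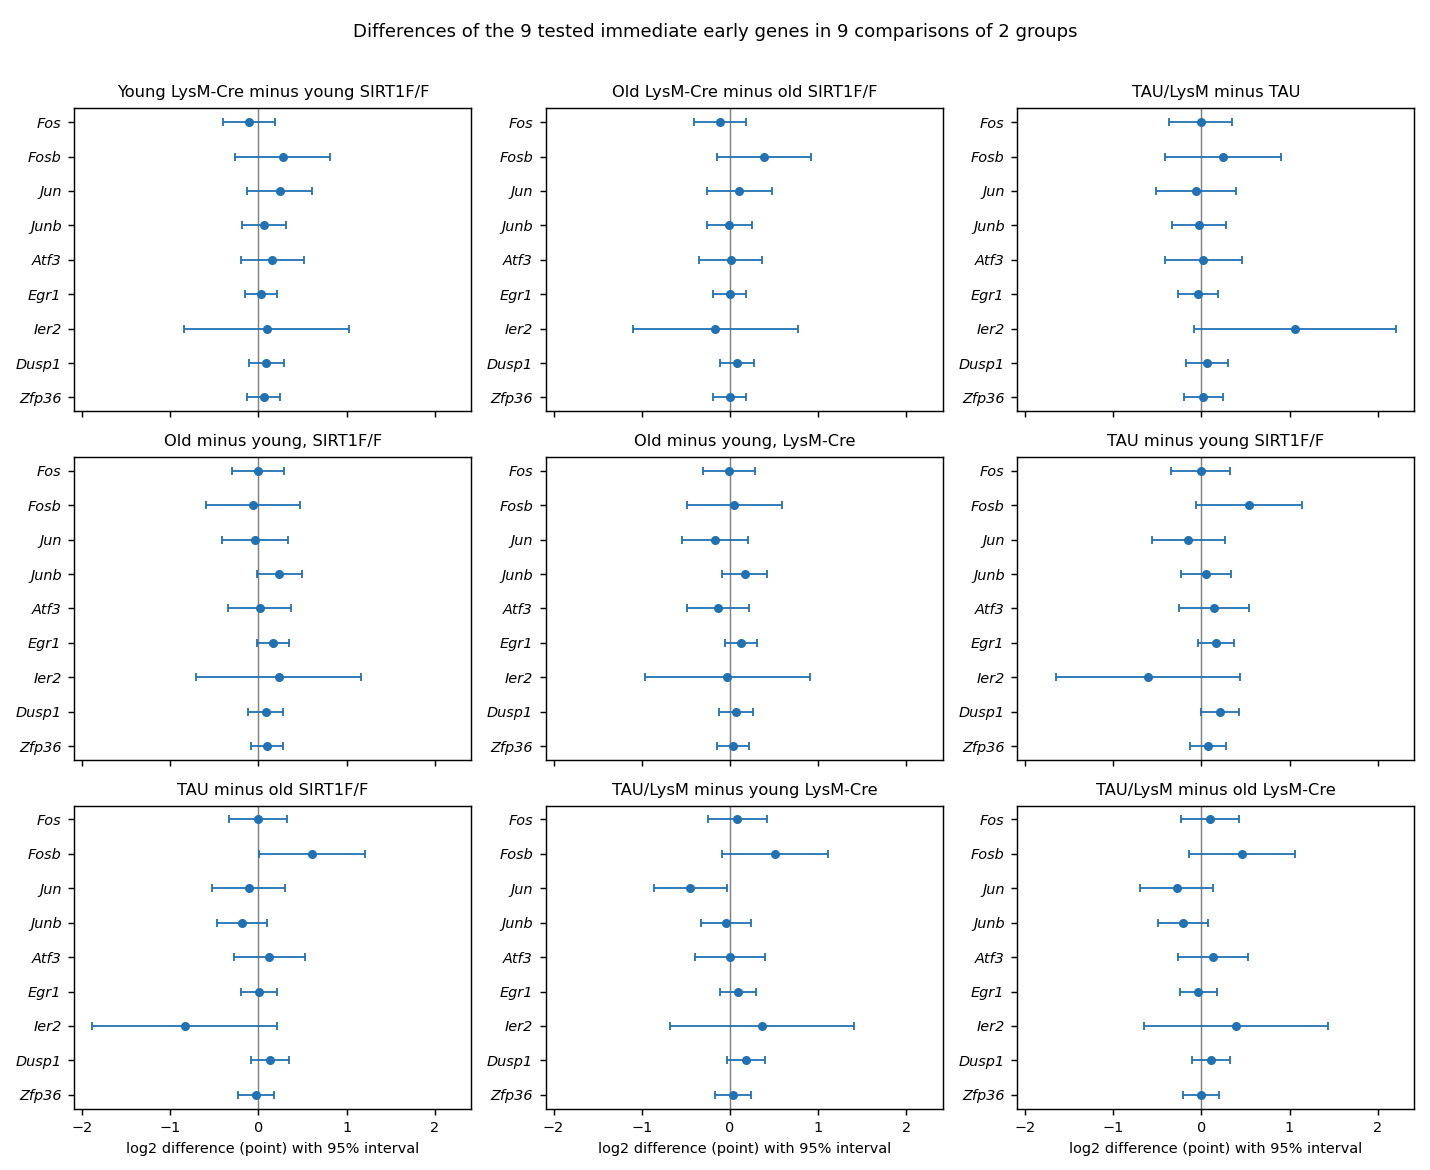
Log2 difference (x axis) with its 95% interval for the 9 tested members (y axis) in the 9 comparisons of a pair of groups. All intervals include 0 apart from Jun in TAU/LysM against young LysM-Cre (-0.87 to -0.04) and Fosb in TAU against old SIRT1F/F (0.01 to 1.21), and Ier2 has the widest intervals.

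With Cre in young mice, 0 of 9 members were called, as were 0% of all tested probes, and 0 of 9 had an unadjusted p under 0.05, against 7.94%. The estimate was higher in LysM-Cre for 8 of 9 members, with a median of 0.09 against 0.00 over all tested probes. Without young SIRT1F/F array 2 the estimate was higher for 5 of 9, with a median of 0.03. Jun differed by 0.24 ± 0.17 (SE; 95% interval -0.13 to 0.61; limma adjusted p = 0.703) and Fosb by 0.27 ± 0.25 (-0.26 to 0.81), and without that array by 0.06 and -0.07. Egr1, the most closely measured of the transcription factors, differed by 0.03 ± 0.09 (-0.15 to 0.21). In no member did the genotypes separate, as they did in 10.8% of all tested probes.

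In old mice 0 of 9 members were called, against 0.0184% of all tested probes, and 0 of 9 had an unadjusted p under 0.05, against 6.6%. Fosb was the only member whose genotypes did not overlap, which 12.5% of all tested probes also did not, and its difference was 0.39 ± 0.25 (-0.15 to 0.92; limma adjusted p = 0.829). Zfp36 differed by 0.00 ± 0.09 (-0.19 to 0.18), Egr1 by 0.00 ± 0.09 and Junb by -0.01 ± 0.12. Of the members, 4 had a higher and 5 a lower estimate.

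Between TAU/LysM and TAU, 0 of 9 were called, against 1.48% of all tested probes (unadjusted p under 0.05: 0 of 9 against 13.2%). Ier2 had the largest estimate of any member in any comparison of a pair of groups, 1.07 ± 0.53 (95% interval -0.08 to 2.21; limma adjusted p = 0.418), and its 2 arrays in each group did not overlap. Non-overlap was reached by 3 of 9 members and by 48.7% of all tested probes, a share of the members no larger than that background. Whether the genotype difference of Ier2 in TAU exceeded that in old mice was tested directly, and that difference of differences was 1.23 ± 0.69 (limma adjusted p = 0.810), or 0.76 without old LysM-Cre array 2. For this contrast 0 of 9 members and 0.202% of all tested probes were called (7.24% at an unadjusted p under 0.05), and for TAU against young 0 of 9 and 0.306% (7.75%). No member reached that unadjusted level in either.

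Averaged over young, old and TAU samples, the Cre difference was called for 0 of 9 members and for 1.22% of all tested probes, with 0 of 9 and 19.9% at an unadjusted p under 0.05. Fosb was higher by 0.30 ± 0.16 (95% interval -0.03 to 0.64; limma adjusted p = 0.299), an estimate that fell to 0.19 without young SIRT1F/F array 2. Fos was the member with the most negative estimate, -0.07 ± 0.09 (-0.26 to 0.11). Dusp1 stood at 0.08 ± 0.06 and Zfp36 at 0.03 ± 0.05.

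Between old and young SIRT1F/F mice, 0 of 9 members were called against 1.27% of all tested probes, 0 of 9 against 14.7% had an unadjusted p under 0.05, and old and young arrays overlapped for every member, whereas they did not in 17.6% of all tested probes. The 1.27% stood for 207 probes, a number that ran from 14 without old SIRT1F/F array 2 to 401 without young SIRT1F/F array 1 and was 22 when only these groups were fitted. Junb was higher in old by 0.24 ± 0.12 (95% interval -0.02 to 0.49; limma adjusted p = 0.376; 0.14 without young SIRT1F/F array 1) and Egr1 by 0.16 ± 0.09 (-0.02 to 0.35; adjusted p = 0.413; 0.10 without young SIRT1F/F array 2). Fos differed by -0.01 ± 0.14 and Jun by -0.04 ± 0.17. In LysM-Cre mice 0 of 9 were called against 1.71%, and 0 of 9 against 17.4% had an unadjusted p under 0.05. There Junb differed by 0.17 ± 0.12 and Egr1 by 0.13 ± 0.09 (adjusted p = 0.458), and Egr1 was the 1 member whose ages did not overlap, against 21.2% of all tested probes. The change of the age difference with Cre was called for 0 of 9 members and 0% of all tested probes (0 of 9 and 2.45% at an unadjusted p under 0.05), and was -0.07 ± 0.17 for Junb and -0.03 ± 0.12 for Egr1.

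TAU arrays were set against both ages because their own age is not given. Against young SIRT1F/F 0 of 9 members were called, although 11.9% of all tested probes were, and 0 of 9 had an unadjusted p under 0.05, against 27.8%. The 11.9% stood for 1953 probes, which fell to 397 when only these groups were fitted, to 920 without young SIRT1F/F array 3, to 812 without TAU array 2 and to 343 without TAU array 1. Dusp1 was higher by 0.21 ± 0.10 (95% interval -0.01 to 0.43; limma adjusted p = 0.198) and Fosb by 0.55 ± 0.28 (-0.06 to 1.15; adjusted p = 0.224). Without young SIRT1F/F array 2 the difference of Fosb was 0.20 and that of Dusp1 was 0.16, and without TAU array 2 they were 0.33 and 0.13. Groups did not overlap for 2 members, Egr1 and Dusp1, and for 43.7% of all tested probes.

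Against old SIRT1F/F 0 of 9 were called, against 3.99% of all tested probes. Fosb was 0.61 ± 0.28 higher (95% interval 0.01 to 1.21; limma adjusted p = 0.288), or 0.40 without TAU array 2, and a 2-sided unadjusted p under 0.05 was reached by 1 of 9 members and by 17% of all tested probes. Junb was -0.19 ± 0.13 and Ier2 -0.84 ± 0.49 relative to old SIRT1F/F. With Fosb these were the 3 members without overlap, which 38.3% of all tested probes were too.

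TAU/LysM against young LysM-Cre gave the lowest adjusted p of the members. Jun was lower by 0.45 on the log2 scale, an estimate of -0.45 ± 0.19 (95% interval -0.87 to -0.04; limma adjusted p = 0.173). In this comparison 0 of 9 members were called against 7.27% of all tested probes, 1 of 9 had an unadjusted p under 0.05 against 23.8%, and 5 of 9 did not overlap against 40.3%. Fosb stood at 0.52 ± 0.28, or 0.24 without TAU/LysM array 2, and Dusp1 at 0.18 ± 0.10. Against old LysM-Cre 0 of 9 were called, against 2.26% of all tested probes, and 0 of 9 had an unadjusted p under 0.05, against 15.6%. Jun stood there at -0.28 ± 0.19, or -0.17 without old LysM-Cre array 1 and -0.46 without array 2, and Fosb at 0.47 ± 0.28, or 0.19 without TAU/LysM array 2, and Fosb was the 1 member without overlap, against 32% of all tested probes.

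Markers of other cell types differed along with the TAU groups. Summed oligodendrocyte markers (8 of 12 tested) read 14.96 to 15.33 on TAU arrays and 12.45 to 13.41 in the other 5 groups, and summed choroid plexus markers (8 of 8 tested) read 15.77 to 15.94 on TAU and 15.05 to 15.60 elsewhere. Summed microglial markers read 17.82 to 17.93 in young SIRT1F/F, 17.65 to 17.66 in TAU and 17.48 to 17.52 in TAU/LysM. Their part in the values of Fosb, Dusp1, Jun and Ier2 was not tested.

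The members were also read together array by array. A group mean cannot lie outside its own arrays, so the ranges below are given as description. The mean deviation of the 9 members from their own 16-array means, averaged by group, ran from -0.08 in young SIRT1F/F to 0.10 in TAU/LysM. Young SIRT1F/F array 2 lay below the 16-array mean of every one of the 9 members and was alone the lowest array of all for 5 of them (Fosb, Jun, Egr1, Ier2 and Dusp1) and level with others at the lowest for Fos, whereas 45.4% of all tested probes were below their own mean on that array and 6.56% were lowest there alone. The mean deviation was -0.38 on that array. On the others it ran from -0.19 (old LysM-Cre 2) to 0.18 (TAU/LysM 2), and every group except TAU/LysM held arrays on both sides of 0.

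The array numbers in the labels ran through this pattern. In each of the 4 groups of 3, array number 2 had the lowest Fosb, Ier2 and Dusp1. Ier2 on those arrays read 7.76, 8.22, 8.40 and 7.76, against 8.74 to 9.62 on the 8 other arrays of those groups, so the values did not overlap. Array number 1 had the lowest Junb in all 4 groups. Altogether 4 of 9 members were lowest on 1 array number in all 4 groups, and 7.84% of all tested probes were. For array number 2 alone these were 3 of 9 members and 2.71% of all tested probes. The labels do not say what the numbers mark, and the 2 arrays numbered 2 in TAU and TAU/LysM were the higher of their pair for all of Fosb, Ier2 and Dusp1.

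**Figure D3:**
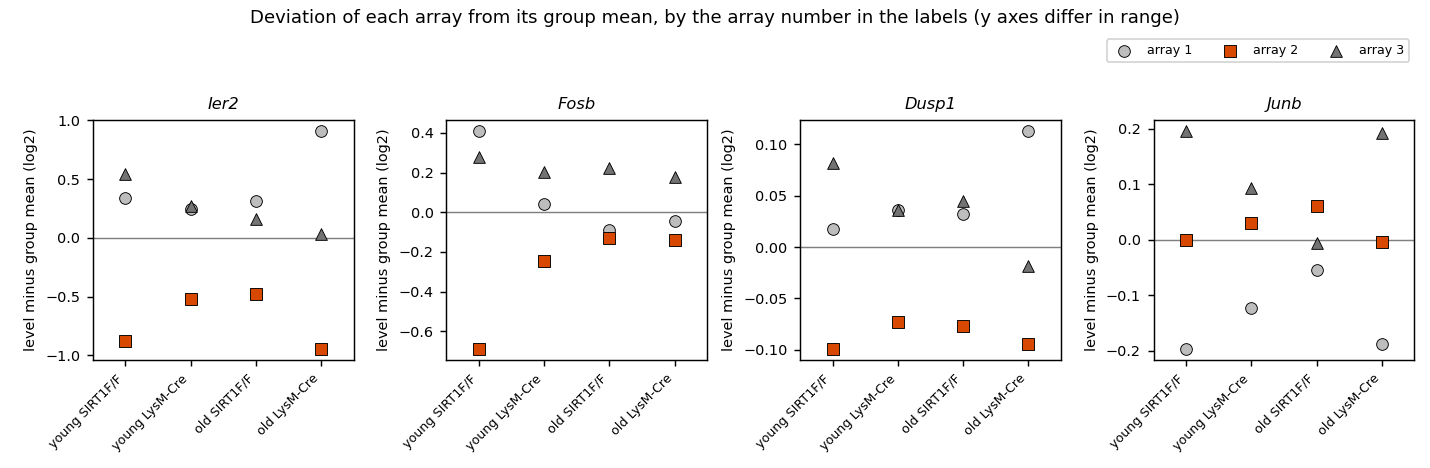
Level minus the group mean (y axis, log2) for Ier2, Fosb, Dusp1 and Junb in the 4 groups of 3 arrays (x axis), with the marker giving the array number in the labels. Array 2 is the lowest in all 4 groups for Ier2, Fosb and Dusp1, and array 1 is the lowest in all 4 for Junb.

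Some marker sums also followed the array numbers, and others did not. The sums of monocytes, B cells, T and NK cells and border-associated macrophages kept no 1 number as lowest or highest in all 4 groups. Nor did those of astrocytes, neurons, endothelial cells, or erythrocytes and platelets, nor the median or highest intensity of the array. Summed choroid plexus markers were lowest on array number 2 in 4 of the 4 groups, summed microglial markers lowest on array number 1 in 4 of 4, and summed oligodendrocyte markers highest on array number 1 in 4 of 4. Summed markers of neutrophils, of monocytes and of border-associated macrophages were each lowest on array number 2 in 3 of 4. The median intensity and the summed astrocyte markers were each highest on array number 1 in 3 of 4. The share of probes above background was highest on array number 1 in 4 of 4 and lowest on array number 2 in 2 of 4. Their part in the pattern of the members was not tested.

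Pairs of members correlated above 0 more often than below, and less so once the 2 farthest arrays of a pair were left out. Of the 36 pairs of tested members, 30 correlated above 0 over the 16 arrays, with a median Pearson r of 0.34, and 31 did so after each group's mean was removed, with a median of 0.49. Over all pairs of tested probes 50.3% correlated above 0, and 49.8% did within groups. Without the 2 arrays farthest from the median of a pair's first gene, 22 pairs of members remained above 0 and 14 were below, with a median of 0.04. Leaving out such arrays also narrows the range of levels, and this median was not computed over all pairs of probes. The 16 arrays share platform, normalization and preparation. With permutation p-values adjusted over the 36 pairs, 2 pairs passed. All 16 arrays were permuted freely, so these p-values do not measure co-variation beyond the groups and the array numbers. Fosb and Dusp1 correlated at r = 0.80 (permutation adjusted p = 0.0101) and rho = 0.79 (adjusted p = 0.0191) over 16 arrays, and r was 0.62 without the 2 arrays farthest from the median and 0.66 within groups. Junb and Zfp36 correlated at r = 0.73 (permutation adjusted p = 0.0261) but rho = 0.60 (adjusted p = 0.144), and r was 0.43 without the 2 farthest arrays. Ier2 and Dusp1 were tied mainly within groups, at r = 0.94 there and 0.50 over all arrays (permutation adjusted p = 0.204). Besides Zfp36, Junb correlated with Egr1 at r = 0.51 and with Atf3 at 0.25, and its r was -0.10 with Fosb, -0.14 with Fos and -0.05 with Ier2 over all arrays.

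Genes outside the list were ranked by their likeness to the members' mean deviation over 16 arrays, among 10977 genes. The 8 most alike were Spag5, Aurka, Clspn, Arih2, Aspscr1, Tpx2, Psg23 and Bak1, with r of 0.83 to 0.78. After removal of group means they were Arhgef3, Zbtb39, Gtf3c2, Psg23, Relb, Eloa, Pou2f2 and Klf6, with r of 0.92 to 0.89. Psg23 was the 1 gene on both. Ier2 made up 36.9% and Fosb 22.6% of the variance of that mean, and these correlations are given as a description, without a test.

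Some other immediate early genes were called, whereas no member was, and this contrast was not tested. The lists here and below were chosen with earlier results of these data known, so their called shares are given as description. Of 20 further immediate early transcription factors, 18 were tested, and of 20 further early regulators 17 were. With Cre, averaged over young, old and TAU, 1 of the 18 factors and 1 of the 17 regulators were called, both higher, beside the 1.22% of all tested probes given above. They were Nr4a2, a nuclear receptor of the same family as Nr4a1, and Plk2, a polo-like kinase. The median difference was 0.08 for the factors and 0.06 for the regulators, against 0.00 over all tested probes.

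Plk2 separated the genotypes at each age and in TAU. It read 10.38, 10.22 and 10.03 in young SIRT1F/F against 10.84, 10.59 and 10.61 in young LysM-Cre, then 9.33, 9.46 and 9.35 in old SIRT1F/F and 9.94, 9.84 and 9.92 in old LysM-Cre. TAU read 10.65 and 10.34, and TAU/LysM 10.90 and 11.12. Every LysM-Cre array was above every array of its counterpart without Cre. The genotypes also did not overlap in 10.8% of all tested probes in the young, 12.5% in the old and 48.7% in TAU. Plk2 and Nr4a2 were named because the Cre average over these same arrays called them, so their separation is given as description. The Cre difference was 0.47 ± 0.12 among the young, 0.52 ± 0.12 among the old and 0.51 ± 0.14 within TAU, with a mean of 0.50 ± 0.07 (limma adjusted p = 0.00622), though none of the 3 passed alone (adjusted p of 0.537, 0.592 and 0.108). Plk2 fell by 0.83 with age in SIRT1F/F (adjusted p = 0.00951) and by 0.78 in LysM-Cre (adjusted p = 0.00588). It was 1.12 ± 0.13 higher in TAU than in old SIRT1F/F (adjusted p = 0.000461) and 1.11 ± 0.13 higher in TAU/LysM than in old LysM-Cre (adjusted p = 0.000585). Leaving out any 1 array ended none of these 5 calls, and the call with age in SIRT1F/F was lost when only those groups were fitted (adjusted p = 0.0694).

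Nr4a2 read 7.46, 7.53 and 7.74 in young SIRT1F/F against 8.18, 8.08 and 8.0 in young LysM-Cre, then 7.58, 8.08 and 8.05 in old SIRT1F/F and 8.38, 8.25 and 8.26 in old LysM-Cre. It read 7.50 and 7.43 in TAU and 8.10 and 8.42 in TAU/LysM. The LysM-Cre arrays lay above their counterparts in all 3 settings, beside the shares of all tested probes given for Plk2. The average difference was 0.57 ± 0.08 (limma adjusted p = 0.00787), a call that no single array carried. In TAU alone it was 0.79 ± 0.17 (adjusted p = 0.0299), but the adjusted p was 0.195 without TAU 1, 0.138 without TAU 2 and 0.354 without TAU/LysM 2.

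Markers of other cell types moved with Cre beside Plk2 and Nr4a2. Summed neutrophil markers (13 of 14 tested) read 16.63 to 17.11 in young SIRT1F/F and 17.00 to 17.66 in young LysM-Cre. Among the old they read 17.00 to 17.40 without Cre and 17.51 to 17.64 with it, and within TAU 16.48 to 16.78 without it and 16.99 to 17.08 with it. Summed monocyte markers (4 of 9 tested) read 13.97 to 14.33 without Cre and 14.63 to 14.83 with it in the old, and 13.48 to 13.83 and 14.28 to 14.48 in TAU, while the young genotypes overlapped at 13.48 to 14.49 and 14.07 to 14.77. The monocyte sum held Plac8, Chil3, Hp and F13a1, and F13a1 is also a listed marker of border-associated macrophages. Ccr2 and Vcan of monocytes were above background on 0 arrays, so this sum does not set monocytes apart from the other myeloid cells. Summed microglial markers were 17.78 to 17.89 without Cre and 17.64 to 17.72 with it in the old. Border-associated macrophage markers (8 of 8) read 15.06 to 15.23 without Cre and 15.28 to 15.55 with it in the old. Within TAU they read 15.33 to 15.49 and 15.94 to 15.95, and the young genotypes overlapped. The neutrophil, monocyte and border-associated macrophage sums were thus higher on every old and TAU array with Cre than on any counterpart. The microglial sum was lower in the same way. Within TAU alone the T and NK cell sum was also higher with Cre, at 9.06 to 9.09 against 8.57 to 8.80. The oligodendrocyte, choroid plexus, neuron and endothelial sums were lower there. The part of all these sums in the values of Plk2 and Nr4a2 was not tested.

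**Figure D4:**
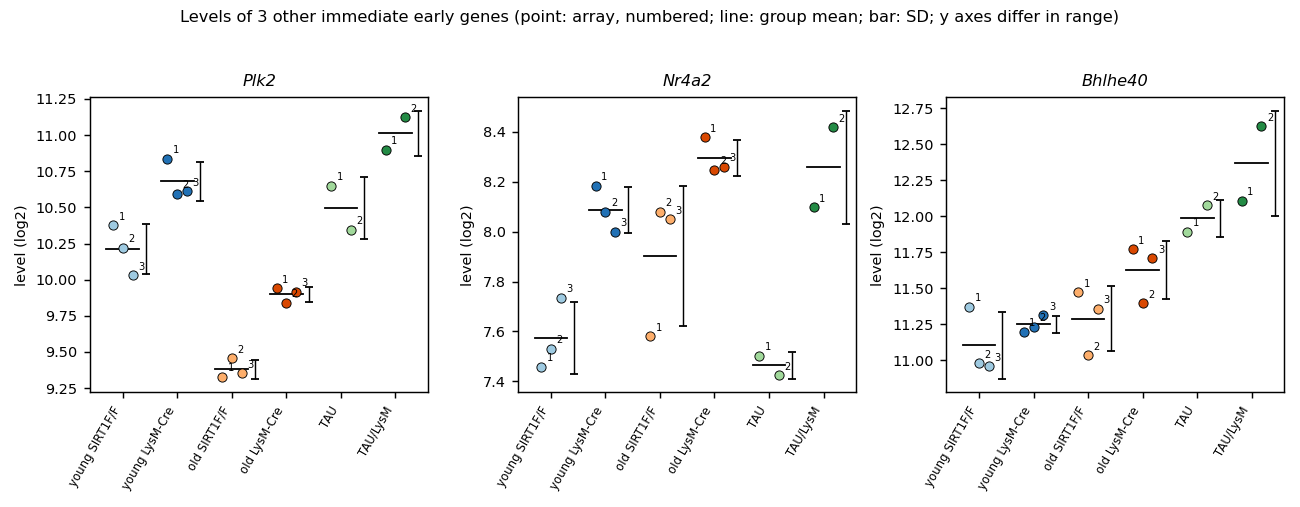
Normalized level (y axis, log2 intensity) of Plk2, Nr4a2 and Bhlhe40 on each array by group (x axis), with group means as lines and SD as bars. Plk2 is lowest in the old groups at 9.33 to 9.94, and Plk2 and Nr4a2 are higher on every LysM-Cre array than on any counterpart array.

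Among the other factors, Bhlhe40, a circadian and stress repressor, was 0.88 ± 0.18 higher in TAU than in young SIRT1F/F (limma adjusted p = 0.00872) and 1.12 ± 0.18 higher in TAU/LysM than in young LysM-Cre (adjusted p = 0.00325), 1 of 18 factors in each, a smaller share than the 11.9% and 7.27% of all tested probes called there. The first had an adjusted p of 0.0564 without TAU 1 and 0.0762 without TAU 2, and the second 0.0615 without TAU/LysM 2. Irf1, an interferon-response factor, was 0.67 ± 0.13 higher with age in SIRT1F/F (adjusted p = 0.0296), 1 of 18, and its adjusted p was 0.0723 without young SIRT1F/F 2, 0.0538 without young SIRT1F/F 3, 0.142 without old SIRT1F/F 2 and 0.0837 without old SIRT1F/F 3. Gadd45g, a growth arrest gene, fell by 0.48 in TAU against young SIRT1F/F (adjusted p = 0.0321), 1 of 17 regulators against 11.9% of all tested probes, and its adjusted p was 0.0691 without young SIRT1F/F 1, 0.109 without young SIRT1F/F 3, 0.152 without TAU 1 and 0.161 without TAU 2.

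Upstream of these genes, 13 of 20 listed kinases and factors were tested. Mapk14, which encodes the p38 alpha kinase, was the 1 called, in 2 comparisons. It fell by 0.56 in TAU against young SIRT1F/F (limma adjusted p = 0.0125) and by 0.54 in TAU/LysM against young LysM-Cre (adjusted p = 0.0226). In each comparison 1 of 13 was thus called, beside 11.9% and 7.27% of all tested probes. Without TAU 1 the first had an adjusted p of 0.155, and 0.0505 without young SIRT1F/F 3. Without TAU/LysM 1 the second had an adjusted p of 0.144, without TAU/LysM 2 one of 0.0929 and without young LysM-Cre 3 one of 0.0786. Of 12 listed AP-1 partner factors 9 were tested, and limma called 0 of the 9 in each of the 13 comparisons.

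Inflammatory mRNAs that are induced alongside these genes or bound by ZFP36 were tested for 19 of 20. With age 3 of 19 were called higher and 1 lower in SIRT1F/F, and 2 higher and 1 lower in LysM-Cre. Of all tested probes 1.27% and 1.71% were called. The list medians were 0.34 and 0.24, against -0.03 and -0.03 over all tested probes. Tnf rose by 1.27 ± 0.23 in SIRT1F/F (limma adjusted p = 0.0196) and 1.21 ± 0.23 in LysM-Cre (adjusted p = 0.0221), and Il1a by 1.03 ± 0.19 and 1.02 ± 0.19. Il10, an anti-inflammatory cytokine, fell by 1.82 (adjusted p = 0.00715) and by 1.88 (adjusted p = 0.00361). The call of Il10 stood without any 1 array but was lost in SIRT1F/F when only those groups were fitted (adjusted p = 0.0528), and Tnf was not called in either genotype by the unmoderated linear model (adjusted p of 0.0694 and 0.0671). Leaving out old SIRT1F/F 1, 2 or 3 left 0 rising calls in SIRT1F/F, and leaving out young LysM-Cre 3 or old LysM-Cre 1 left 0 in LysM-Cre. With Cre on average, Il10 was higher by 0.77 (limma adjusted p = 0.0326) and Cxcl2 by 0.45 (adjusted p = 0.0489), beside 1.22% of all probes. Both calls were lost with median scaling, without a filter or unmoderated. Tnf, Il1a and Nfkbiz were called higher and Il10 lower in TAU against young SIRT1F/F (11.9% of all). TAU/LysM against young LysM-Cre had Tnf and Nfkbiz higher and Il10 lower (7.27%). These TAU and TAU/LysM calls were lost with only the groups compared.

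Heat shock genes, chaperones that respond to proteotoxic stress and heat, were tested for 11 of 14. With age 3 of 11 were called lower in SIRT1F/F and 4 of 11 in LysM-Cre, against 1.27% and 1.71% of all tested probes called. This list too was chosen with earlier results of these data known. The list medians were -0.74 and -0.88. The counts of lower genes in TAU and TAU/LysM below are also calls, against 11.9% and 7.27% of all tested probes. Hspd1, the mitochondrial HSP60, fell by 0.67 (limma adjusted p = 0.0212) and by 0.89 (adjusted p = 0.00588), and Bag3, a co-chaperone, by 0.74 (adjusted p = 0.0306) and by 1.12 (adjusted p = 0.00478). Leaving out young SIRT1F/F 3, old SIRT1F/F 1 or old SIRT1F/F 2 left 0 calls in SIRT1F/F, while at least 3 remained in LysM-Cre without any 1 array. In TAU 6 of 11 were lower than in young SIRT1F/F, and 0 without TAU 1 or without TAU 2. In TAU/LysM 4 of 11 were lower than in young LysM-Cre, 2 without young LysM-Cre 1, 1 without TAU/LysM 1 and 0 without TAU/LysM 2. Over the same comparisons with age the 9 immediate early members had medians of 0.08 and 0.04.

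Marker sums of other cell types also differed with age. In SIRT1F/F, summed B cell markers (4 of 8 tested) read 10.88 to 11.11 in the young and 10.39 to 10.63 in the old, and those of T and NK cells (5 of 11) 8.74 to 9.45 and 8.57 to 8.72. Border-associated macrophage markers (8 of 8) read 15.30 to 16.04 and 15.06 to 15.23, whereas endothelial markers (6 of 9) read 13.12 to 14.16 and 14.22 to 14.65. In LysM-Cre the B cell sum read 11.09 to 11.31 and 10.60 to 10.80, the T and NK cell sum 9.26 to 9.41 and 8.71 to 8.79, and the endothelial sum 13.39 to 13.91 and 14.40 to 14.58, while the macrophage sum overlapped at 15.50 to 15.90 and 15.28 to 15.55. Apart from that last sum, old and young arrays did not overlap in any of these. Summed neuron markers (5 of 10) read 9.21 to 9.74 in young and 9.85 to 10.07 in old SIRT1F/F. In LysM-Cre they read 9.32 to 9.52 and 9.69 to 10.07. The microglial sum read 17.81 to 17.87 and 17.64 to 17.72 in LysM-Cre, while in SIRT1F/F it overlapped at 17.82 to 17.93 and 17.78 to 17.89. The choroid plexus sum read 15.09 to 15.24 and 15.30 to 15.37 in SIRT1F/F and overlapped in LysM-Cre. Their part in the age differences of Plk2, Irf1, the inflammatory mRNAs and the heat shock genes was not tested.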

How the data were processed

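Total RNA of 16 bead-selected samples was hybridised to Illumina arrays as biotinylated cRNA, per the labels' protocols. Probe intensity was deposited by the authors for every array, beside a table of log2 values that equals quantile-normalized log2 intensity to within 5e-09. The scanner's make and software version were not stated in the labels used, and the intensity table came without control probes or detection p-values, so background was estimated from each array's own values. Intensity was corrected with normexp (offset 16, all probes), converted to log2 and then quantile normalized between arrays. Background per array was a normal curve centred on the most frequent log2 intensity, its width taken from lower values, and a probe with under 0.05 of that curve above it counted as above background. Probes above background on at least 2 arrays were tested in 1 limma fit (limma 3.58.1, R 4.3.3) of 6 group means on all 16 arrays, with no array dropped, giving 13 contrasts and Benjamini-Hochberg calls under 0.05. The number of arrays limits the precision.

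Named genes were the 10 members, the called genes of the other lists, and the 8 genes most like the members' mean deviation. For the 2 lists of inflammatory and heat shock genes, examples were taken from the called genes. The members and lists were chosen with earlier results of these data known. Genes were named through the platform table, which gives 1 symbol for 23978 probes and none for 1719. All 10 members matched the GRCm38.p6 gene table by identifier. The numbers in the sample titles were checked for pairing. Same-numbered young arrays deviated together (correlations of 0.24 to 0.51 over 3 pairs), and the other comparisons with 3 pairs had at least 1 correlation under 0.1. The fit was tested on simulated data. Alternatives covered the background correction, scaling, filters, variance model, replicate block, array weights and each array left out in turn.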

Additional observations from a re-analysis of the deposited data

How the results depend on the processing

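Over 28 alternative settings and 2151 tests of a member, limma called no member, and the lowest adjusted p was 0.0677 (Fosb, TAU against old SIRT1F/F, with array weights). The sign of the estimate turned in 177 of these tests, all of them uncalled. With the replicate block the lowest adjusted p of a member was 0.133 and 0 members were called in each comparison. In young arrays, where the numbers paired, the block gave 0 calls and a lowest adjusted p of 0.415 (Jun), so pairing changed no call of a member. Median scaling in place of quantile moved the median of all tested probes to -0.16 in TAU against young SIRT1F/F and to -0.11 with age in SIRT1F/F. The number of all probes called moved by over 1.5 times under several settings. In TAU against young SIRT1F/F it was 1953, from 397 with only the groups compared to 3231 with median scaling, and in TAU against old SIRT1F/F 652, from 393 without a filter to 1513 with array weights. In TAU/LysM against young LysM-Cre it was 1189, from 217 with only the groups compared to 1634 with median scaling, and against old LysM-Cre 370, from 138 with only the groups compared to 551 with the deposited log2 values. With age it was 207 in SIRT1F/F (22 with only the groups compared, 451 with the replicate block) and 279 in LysM-Cre (81 in the unmoderated model, 549 with the replicate block). For the Cre difference it was 242 in TAU (40 with only the groups compared, 484 with array weights) and 199 on average (38 unmoderated, 449 with the deposited values), and in old mice it was 3 (0 unmoderated). The Cre difference in TAU against that in the young and the old gave 50 and 33, 7 and 6 unmoderated, and 154 and 133 with the replicate block. With 1 array left out the same numbers fell as low as 343, 147, 251, 63, 14, 54, 38, 28, 10 and 6, for TAU against young and old, TAU/LysM against young and old, age in SIRT1F/F and LysM-Cre, Cre in TAU and on average, and Cre in TAU against young and old. Of 46 calls of genes in the other lists, 27 were lost with only the groups compared, 17 unmoderated, 13 without a filter, 7 with median scaling and 1 with the replicate block. The slide block was not run because the column names give no slides. Without any filter Nr4a1 had an adjusted p of at least 0.362 in all 13 comparisons. Signal limits the members at both ends, near the brightest probes for Zfp36, Egr1, Junb, Dusp1 and Fos and below background for Nr4a1.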
